A study of Mus musculus with 50 samples.

Results

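The 10 genes described here encode steps of insulin and mTORC1 signalling, from the insulin receptor to the glucose transporter GLUT4 and the translation repressor 4E-BP1. They were chosen by their symbols: Insr, Irs1, Irs2, Pik3r1, Akt1, Akt2, Slc2a4, Eif4ebp1, Grb10 and Rptor. The deposited tables hold 23880 genes, and all 10 members were among the 12586 genes with enough reads to be tested. RNA was sequenced from the gastrocnemius, a fast calf muscle, of 50 male wild type mice of the strain C57BL/6JRj. The groups of 8, 18, 22 and 24 months held 8 mice each, those of 26 and 28 months 9 mice each. Each mouse was caged singly, received the AIN93M diet and gave 1 library. The 8 and 18 months-old mice were acclimatized to that diet before dissection and the older mice received it from before 22 months on, so the feeding schedule and age cannot be told apart between these groups. The mice aged naturally and none carried a transgene. Whether they were fed or fasted before dissection is not given in the sources used here. Total counts ranged from 13607229 to 21267375 per mouse. The summed level of 7 markers of the muscle fibre was 114041 to 188316 TPM (a level scaled to transcript length and library size) over the libraries, whereas 6 lymphocyte markers together stayed between 0.371 and 2.81 TPM.

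In skeletal muscle, insulin binds its receptor, the receptor phosphorylates the IRS adaptors, and these recruit phosphatidylinositol 3-kinase (PI3K), whose lipid product activates the Akt kinases. Akt sends vesicles that carry GLUT4 to the cell surface, holds FoxO transcription factors out of the nucleus, and relieves the brake on mTORC1, a kinase complex that raises protein synthesis when amino acids are also present. Low insulin signalling lets FoxO factors activate genes of protein breakdown and also, in muscle and liver, the genes of the receptor and of IRS2, while active mTORC1 feeds back on the IRS adaptors.

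Over all 50 mice, the members spanned a wide range of levels per length. Slc2a4 was highest with 449 ± 37.8 TPM (SD, n = 50) and Akt2 followed with 278 ± 27.2 TPM. The other 8 members had mean levels of 81.4 TPM for Akt1, 66.2 TPM for Eif4ebp1, 38.5 TPM for Insr, 27.0 TPM for Pik3r1, 18.2 TPM for Rptor, 17.3 TPM for Irs2, 14.2 TPM for Grb10 and 13.9 TPM for Irs1. The lowest mouse for Slc2a4 (363 TPM) lay above the highest mouse for Akt2 (354 TPM), and the lowest for Akt2 (221 TPM) above the highest for Akt1 (196 TPM). From Akt1 downwards, each neighbour in this order overlapped the next over the mice. The least read member value was 350 counts, for Grb10, so counting error was small beside the spread between mice.

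Between 8 and 28 months, 5 of the 10 members rose: Pik3r1, Eif4ebp1, Irs2, Akt1 and Insr, and none fell. Values are counts scaled to library size (CPM) and fold changes are in CPM, unless TPM is named. Among all genes tested, 21.0% were higher and 18.7% lower at 28 months at the same threshold, a false discovery rate (FDR) below 0.01. The median log2 fold change was 0.72 over the 10 members and 0.01 over all genes tested. The members were chosen with earlier results of these data known, so these shares and medians are a description and not a test of the set. The same 5 genes rose between 22 and 28 months, where 16.2% of all genes were higher and 11.5% lower. With upper-quartile instead of TMM scaling, the share of calls of this comparison that were higher went from 58.3% to 43.4% over all genes, and the 5 members were still called higher. Both comparisons share the 28 months-old mice, and those against 8 months share the 8 months-old mice. At 26 against 8 months, where 9.84% of all genes were higher and 8.54% lower, Pik3r1, Eif4ebp1, Insr and Akt1 rose. Leaving out any 1 of 10 mice (8 months-old mice 1, 3, 4, 5 and 6 and 26 months-old mice 1, 3, 4, 6 and 8) left 2 of these 4 calls, those of Pik3r1 and Eif4ebp1. Without 8 months-old mouse 2 or 8 the call of Akt1 alone was lost, and without 8 months-old mouse 7 that of Insr alone. The calls of Insr and Akt1 at 26 months were also lost without the filter, with only these 2 ages in the fit, with limma on TPM and with the long-gene index (the level of long minus short genes) as a covariate. In a test for any difference among the 6 ages, which called 35.4% of all genes, Insr, Irs2, Pik3r1, Akt1 and Eif4ebp1 were the members called.

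No member was called at 18 months (0.0715% of all genes called in either direction), at 22 months (0.0397%) or at 24 months (0.612%) against 8 months, and no member was called in a step from one age to the next. These steps called almost no gene with edgeR: 0.00795% at 22 against 18 months, and 0% at 24 against 22, 26 against 24 and 28 against 26 months. At an unadjusted p below 0.05, edgeR counted 522, 478, 2202 and 1609 genes in these 4 steps. DESeq2 called 2, 0, 14 and 0 genes in them and limma 1, 0, 0 and 1. At that unadjusted level, the step from 18 to 22 months held Slc2a4 as lower, the step from 24 to 26 months held Insr, Pik3r1 and Eif4ebp1 as higher and Rptor as lower, and the step from 26 to 28 months held Irs1, Irs2, Akt1 and Rptor as higher. The calls against 8 months lay at 26 and 28 months, and the single steps did not pass the adjusted threshold.

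**Figure D1:**
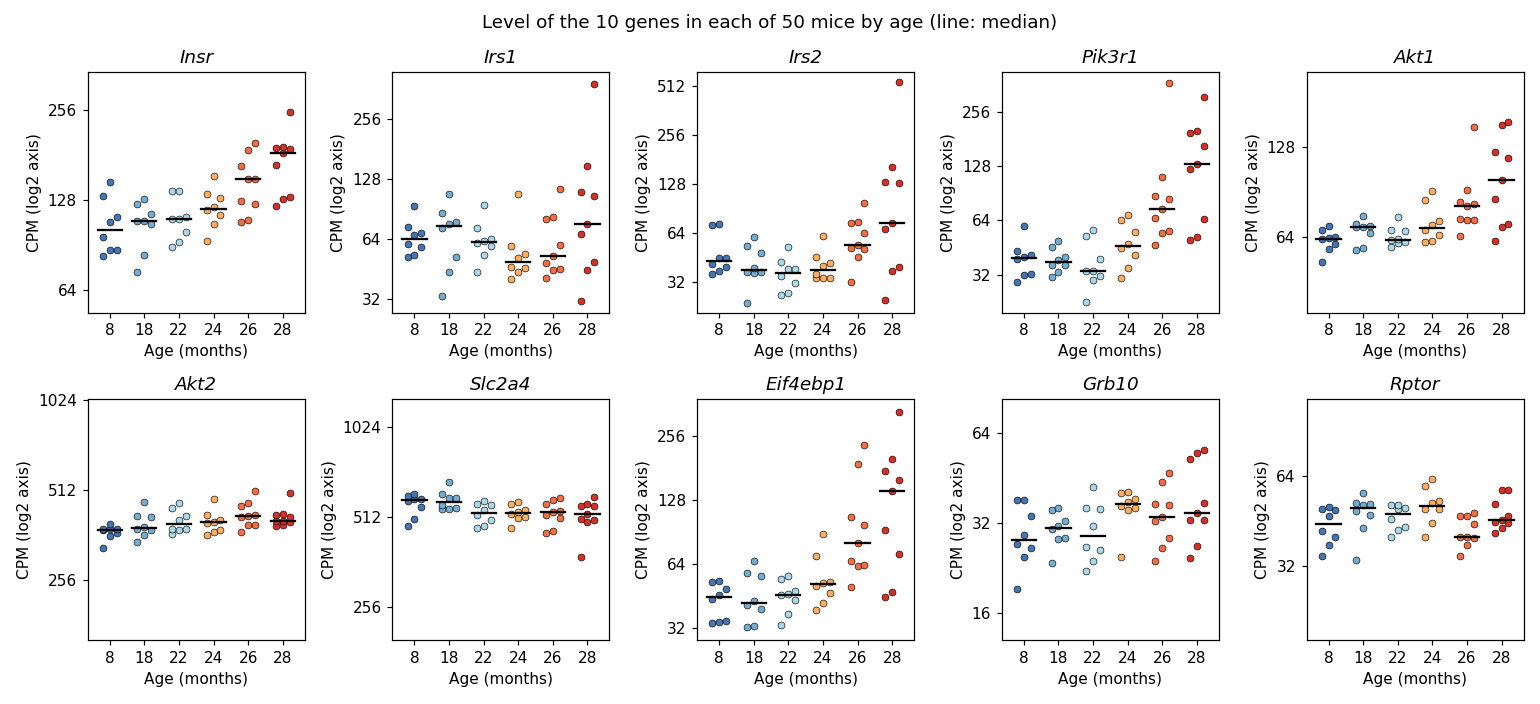
Level of each of the 10 genes in each of the 50 mice, in CPM (log2 axis, range set for each gene), against age in months, with a line at the median of each age. The medians of Insr, Irs1, Irs2, Pik3r1, Akt1 and Eif4ebp1 lie highest at 28 months, that of Irs1 narrowly (76.0 CPM, beside 74.2 CPM at 18 months). Single mice at 26 and 28 months stand far above the rest in Irs1, Irs2 and Pik3r1.

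**Figure D2:**
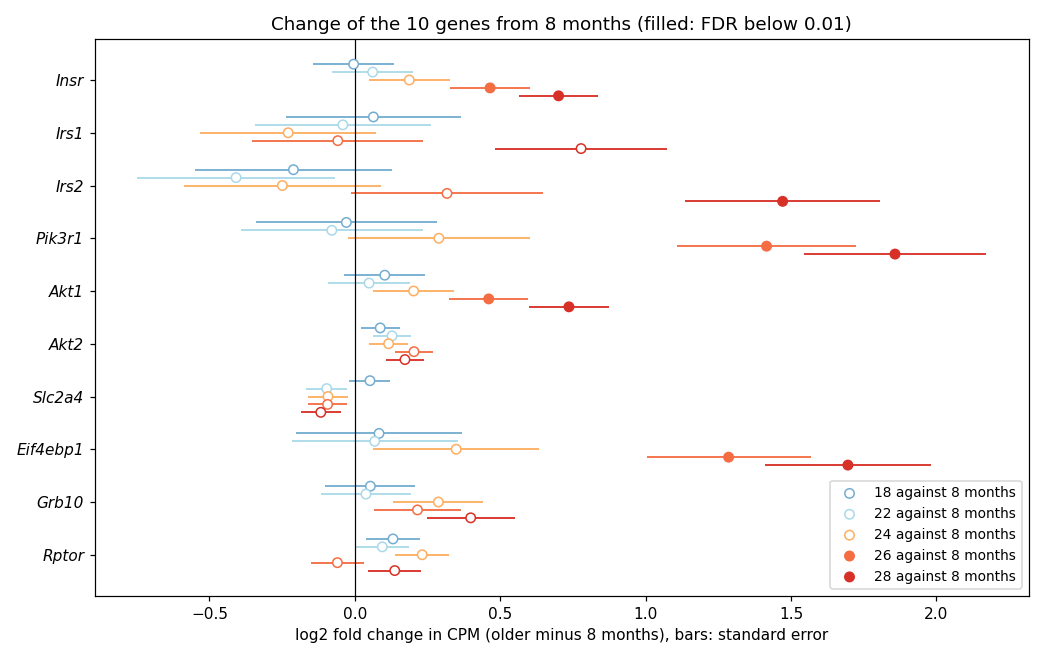
The log2 fold change in CPM of each gene at 18, 22, 24, 26 and 28 months against 8 months, with its standard error as a bar and filled symbols where the FDR was below 0.01. Filled symbols occur at 26 months (Insr, Pik3r1, Akt1 and Eif4ebp1) and at 28 months (these and Irs2), and Slc2a4, Akt2 and Rptor stay between -0.12 and 0.23 at all 5 ages.

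Insr (ENSMUSG00000005534, chromosome 8, 3122061 to 3279617 on GRCm38, minus strand) encodes the insulin receptor, a tyrosine kinase at the cell surface. In 8 months-old mice it ranged from 83.1 to 147 CPM with a median of 102 CPM, and in 28 months-old mice from 122 to 251 CPM with a median of 183 CPM. At 28 months, 6 of 9 mice lay above the highest 8 months-old mouse and the other 3 lay within the 8 months-old range. At 28 against 8 months the log2 fold change was 0.70 ± 0.14 (SE, FDR = 4.53e-05) and at 26 against 8 months 0.46 ± 0.14 (FDR = 0.00777). The value at 26 months lay close to the threshold and was 0.53 (FDR = 0.0176) with limma on log2(TPM + 1) and 0.28 (FDR = 0.0128) with the long-gene index.

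Among mice of the same age, the level of Insr varied with a difference between long and short genes, and this difference also shifted with age. The mean log2 CPM of the 1204 longest genes minus that of the 1203 shortest had a median of -0.12 at 8 months and 0.42 at 28 months. Over the 50 mice, with age means removed, this index had r = 0.82 (rho = 0.84) with Insr, r = 0.66 (rho = 0.56) with Rptor, r = 0.54 (rho = 0.60) with Grb10 and r = 0.45 (rho = 0.59) with Pik3r1, whose longest transcripts have 5061 to 9355 bases. For Akt1 (r = 0.13), Eif4ebp1 (r = -0.03) and Slc2a4 (r = -0.40), with transcripts of at most 2690 bases, the values were lower. Not all long transcripts had a high r: it was 0.27 for Irs1 (9144 bases), 0.34 for Irs2 (6323 bases) and -0.24 for Akt2 (4544 bases). Values for long genes other than the members are not given here. With the index as a covariate, the log2 fold change at 28 against 8 months was 0.33 for Insr (FDR = 0.0045), 1.35 for Pik3r1 (FDR = 0.00119), 0.66 for Akt1 (FDR = 0.00122) and 1.72 for Eif4ebp1 (FDR = 0.000162), all still called. That of Irs2 was 0.98 and was no longer called (FDR = 0.0379). Whether RNA quality, library preparation or the muscle itself moved the index was not tested.

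Irs1 (ENSMUSG00000055980, chromosome 1, 82233101 to 82291416, minus strand) and Irs2 (ENSMUSG00000038894, chromosome 8, 10984681 to 11008458, minus strand) encode the adaptors that carry the receptor's signal to PI3K. Because their levels varied together over the mice, their promoters are shown, as the 250 bases before the RefSeq start site (GRCm38.p6, minus strand, 5′ to 3′), chr1:82291440-82291689 for Irs1 and chr8:11008930-11009179 for Irs2. Capitals mark the E-box CACGTG, a site read alike on both strands and bound by factors such as TFE3, TFEB and the clock proteins.
Irs1: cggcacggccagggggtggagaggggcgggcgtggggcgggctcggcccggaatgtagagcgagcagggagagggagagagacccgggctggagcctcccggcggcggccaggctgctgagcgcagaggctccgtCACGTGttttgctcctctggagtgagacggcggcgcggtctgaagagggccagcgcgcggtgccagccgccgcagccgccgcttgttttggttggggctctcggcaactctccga
Irs2: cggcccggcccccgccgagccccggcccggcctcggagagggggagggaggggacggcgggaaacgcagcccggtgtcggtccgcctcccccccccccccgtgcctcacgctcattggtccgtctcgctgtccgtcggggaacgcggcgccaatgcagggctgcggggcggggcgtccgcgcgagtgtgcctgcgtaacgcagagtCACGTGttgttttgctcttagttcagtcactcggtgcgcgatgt
The E-box begins 115 bases before the RefSeq start site in Irs1 and 44 bases before it in Irs2. These start sites lie 23 and 471 bases upstream of the GENCODE gene starts, and no GENCODE transcript of either gene held the first bases after them, so from the GENCODE starts the E-box lies 138 and 515 bases upstream. Of 32851 RefSeq promoter windows of 300 bases, 7.15% hold it. Of the 10 members, 7 had a window there, and no member other than Irs1 and Irs2 held the E-box. A match of letters is a description and shows no binding.

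Irs2 ranged from 35.8 to 73.2 CPM with a median of 43.3 CPM at 8 months, from 26.9 to 52.3 CPM with a median of 36.7 CPM at 22 months and from 25.01 to 545 CPM with a median of 73.6 CPM at 28 months. Of the 9 mice at 28 months, 5 lay above the highest and 1 lay below the lowest 8 months-old mouse. Irs2 differed by a log2 fold change of 1.47 ± 0.34 at 28 against 8 months (FDR = 0.000322) and 1.88 ± 0.34 at 28 against 22 months (FDR = 5.59e-05). At 26 months the level was 60.6 ± 19.5 CPM (SD, n = 9) and not called. The size of the rise rested in large part on 28 months-old mouse 1 (545 CPM): without it the log2 fold change against 8 months was 0.78 (FDR = 0.0087). Without mice 1 and 2 of that age it was 0.66 (FDR = 0.0315) and no longer called. The call was also lost with limma on log2(TPM + 1), at 0.92 (FDR = 0.0105), and with only these 2 ages in the fit, at 1.46 (FDR = 0.0189).

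Irs1 ranged from 51.8 to 93.7 CPM with a median of 63.7 CPM at 8 months and from 31.4 to 383 CPM with a median of 76.0 CPM at 28 months. At 28 months 4 mice lay above and 3 below the whole 8 months-old range, so the spread widened in both directions. Its log2 fold change of 0.78 ± 0.30 did not pass the threshold (FDR = 0.0245), and it was 0.27 (FDR = 0.364) without 28 months-old mouse 1, which had 383 CPM. Without mouse 6, the lowest, it was 0.90 and called (FDR = 0.00687). Per length, Irs1 made up 48.8 ± 5.4% (SD, n = 8) of the TPM of both adaptors at 8 months and 40.7 ± 12.7% (n = 9) at 28 months, and these shares overlapped.

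Pik3r1 (ENSMUSG00000041417, chromosome 13, 101680563 to 101768217, minus strand) encodes p85α, the regulatory subunit that binds IRS proteins and holds the catalytic subunit of PI3K. At 28 against 8 months it had the largest fold change of the 10 members, except with the long-gene index as a covariate, where that of Eif4ebp1 was larger (1.72 beside 1.35). Its level ranged from 29.4 to 59.4 CPM with a median of 39.5 CPM at 8 months, from 47.1 to 370 CPM with a median of 73.96 CPM at 26 months, and from 50.02 to 307 CPM with a median of 131 CPM at 28 months. The log2 fold change against 8 months was 1.42 ± 0.31 at 26 months (FDR = 0.000652) and 1.86 ± 0.31 at 28 months (FDR = 5.94e-06), a 3.62-fold difference, and 7 of 9 mice at 28 months lay above every 8 months-old mouse. At 28 months it was 1.63 without mouse 2, the highest of that age. At 26 months it was 0.87 (FDR = 0.00839) without mouse 1, which had 370 CPM. Pik3r1 ranked 137th of 12586 genes by the test across the 6 ages.

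Akt1 (ENSMUSG00000001729, chromosome 12, 112653821 to 112674884, minus strand) and Akt2 (ENSMUSG00000004056, chromosome 7, 27591552 to 27640826, plus strand) encode closely related kinases. Akt2 is the form tied to glucose uptake and Akt1 the form tied to growth. Akt1 ranged from 52.6 to 69.7 CPM with a median of 63.2 CPM at 8 months, from 64.4 to 149 CPM with a median of 81.4 CPM at 26 months and from 62.2 to 155 CPM with a median of 99.4 CPM at 28 months. The group at 28 months was higher, with 7 of 9 mice above every 8 months-old mouse. At 28 against 8 months its log2 fold change was 0.74 ± 0.14 (FDR = 2.44e-05). At 26 months it was 0.46 ± 0.14 (FDR = 0.0085), and 0.32 (FDR = 0.048) without mouse 1 of that age. This call was also lost without any 1 of 26 months-old mice 3, 4, 6 and 8 or 8 months-old mice 1, 2, 3, 4, 5, 6 and 8. Akt2 ranged from 327 to 394 CPM with a median of 377 CPM at 8 months and from 388 to 500 CPM with a median of 405 CPM at 28 months. Its log2 fold change of 0.17 ± 0.06 did not pass the threshold (FDR = 0.0223), although 7 of 9 mice at 28 months lay above the highest 8 months-old mouse. With age means removed, Akt2 had r = 0.55 (rho = 0.64) with the summed muscle fibre markers and r = -0.67 (rho = -0.71) with the fibroblast markers over 50 mice, and the part of tissue makeup in its level was not tested. On log2(TPM + 1), limma gave 0.28 and called it (FDR = 7.8e-05), and with the long-gene index as a covariate edgeR gave 0.22 and called it (FDR = 0.00956). Per length, Akt1 made up 20.5 ± 0.9% (SD, n = 8) of the TPM of both kinases at 8 months and 26.9 ± 6.4% (n = 9) at 28 months. Reads shared by the paralogues were divided by the authors' pseudo-alignment, so a small part of either level may belong to the other.

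The upstream promoter of Akt1 is shown because, among the windows of the members, it alone held a FoxO element, a site of FoxO transcription factors. Another window of Akt1 held no element, several members had more than a single window, and Insr, Slc2a4 and Eif4ebp1 had no window to search. The 250 bases before the upstream RefSeq start site, chr12:112674885-112675134 (GRCm38.p6, minus strand, 5′ to 3′), carry the reverse complement of GTAAACA in capitals.
Akt1: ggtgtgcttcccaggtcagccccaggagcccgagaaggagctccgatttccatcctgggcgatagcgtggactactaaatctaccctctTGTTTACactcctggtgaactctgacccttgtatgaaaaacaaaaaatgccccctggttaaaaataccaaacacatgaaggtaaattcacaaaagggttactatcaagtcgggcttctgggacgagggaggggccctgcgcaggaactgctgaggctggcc
The element begins 161 bases before the start site, and 3.65% of all windows hold it on either strand. This match of letters is also a description and shows no binding, and a link to the level of Akt1 was not tested. The cyclic AMP response element TGACGTCA was also searched, is held by 1.79% of all windows, and was in no window of the 7 members.

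Slc2a4 (ENSMUSG00000018566, chromosome 11, 69942539 to 69948188, minus strand) encodes GLUT4, the transporter that insulin brings to the surface of the muscle fibre. Its level ranged from 477 to 613 CPM with a median of 585 CPM at 8 months and from 376 to 597 CPM with a median of 525 CPM at 28 months, with no mouse at 28 months above and 1 mouse below the 8 months-old range. Between these ages it differed by a log2 fold change of -0.12 ± 0.07 (FDR = 0.146). Leaving out the lowest mouse, 28 months-old mouse 2, moved it to -0.07 (FDR = 0.379). At 22 against 18 months it was -0.15 ± 0.07 (unadjusted p = 0.0398 and FDR = 0.999 with edgeR), with 5 of 8 mice below every 18 months-old mouse. The transcript of the transporter was not called at any age, while genes upstream of it in the pathway were.

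Eif4ebp1 (ENSMUSG00000031490, chromosome 8, 27260329 to 27276674, plus strand) encodes 4E-BP1, which binds the cap-binding factor eIF4E and blocks translation until mTORC1 phosphorylates it. It ranged from 33.8 to 53.4 CPM with a median of 44.9 CPM at 8 months, from 49.9 to 234 CPM with a median of 80.6 CPM at 26 months and from 45.05 to 334 CPM with a median of 141 CPM at 28 months. At 26 months 8 of 9 mice and at 28 months 7 of 9 mice lay above the highest 8 months-old mouse. The log2 fold change against 8 months was 1.29 ± 0.28 at 26 months (FDR = 0.000694) and 1.70 ± 0.29 at 28 months (FDR = 5.85e-06), a 3.24-fold difference, and it was 1.42 without 28 months-old mouse 2.

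Rptor (ENSMUSG00000025583, chromosome 11, 119602905 to 119899576, plus strand) encodes raptor, the scaffold that brings substrates such as 4E-BP1 to mTORC1. It ranged from 34.5 to 50.4 CPM with a median of 44.3 CPM at 8 months and from 41.2 to 57.6 CPM with a median of 45.7 CPM at 28 months, and the groups overlapped. Its log2 fold change was 0.14 ± 0.09 (FDR = 0.2), and it turned to -0.05 (FDR = 0.652) with the long-gene index as a covariate. Grb10 (ENSMUSG00000020176, chromosome 11, 11930508 to 12038683, minus strand) encodes an adaptor that binds the insulin receptor and dampens its signal, and that mTORC1 stabilizes. It ranged from 19.2 to 38.3 CPM with a median of 28.1 CPM at 8 months and from 24.5 to 56.1 CPM with a median of 34.5 CPM at 28 months. Of the 9 mice at 28 months, 3 lay above the 8 months-old range. The log2 fold change of 0.40 ± 0.15 did not pass the threshold (FDR = 0.0239). It was 0.10 (FDR = 0.594) with the long-gene index, and without 28 months-old mouse 3 it was 0.46 and called (FDR = 0.00759).

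In several members the mice of 28 months differed among themselves more than those of 8 months did. The coefficient of variation went from 23.9% at 8 months to 58.8% at 28 months for Pik3r1, from 19.04% to 65.2% for Eif4ebp1, from 8.6% to 33.7% for Akt1 and from 31.2% to 120% for Irs2, while it was 21.7% and 23.9% for Insr and 13.8% and 12.6% for Rptor. Without the highest 28 months-old mouse of each gene, it was 50.4% for Pik3r1, 51.6% for Eif4ebp1, 32.2% for Akt1, 61.9% for Irs2 and 18.8% for Insr, so the value of Irs2 rested in large part on mouse 1. It was higher at 28 than at 8 months in 9 of the 10 members, and in 7 without that mouse. The share over all genes was not computed. The paper reports that the median coefficient of variation over genes was mostly higher at older ages than at the youngest. The count can therefore not be read as particular to these members. Mice 1, 2, 5, 7 and 8 lay above the 8 months-old range in all 5 called members and mouse 9 in 4 of them. Mouse 6 lay above it in 3, and mice 3 and 4 in none. These 5 members were picked by their rise at 28 months, and the share over all genes was not computed. The counts per mouse, here and at 26 months, can therefore not be read as particular to these members. Mouse 4 had 52.1 CPM of Pik3r1 and 45.05 CPM of Eif4ebp1, whereas mouse 2 had 307 and 334 CPM. At 26 months, mice 1, 3 and 8 lay above the range in all 5 and mouse 7 in 1. Mouse 1 of that age had 370 CPM of Pik3r1, where the next mouse had 112 CPM.

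**Figure D3:**
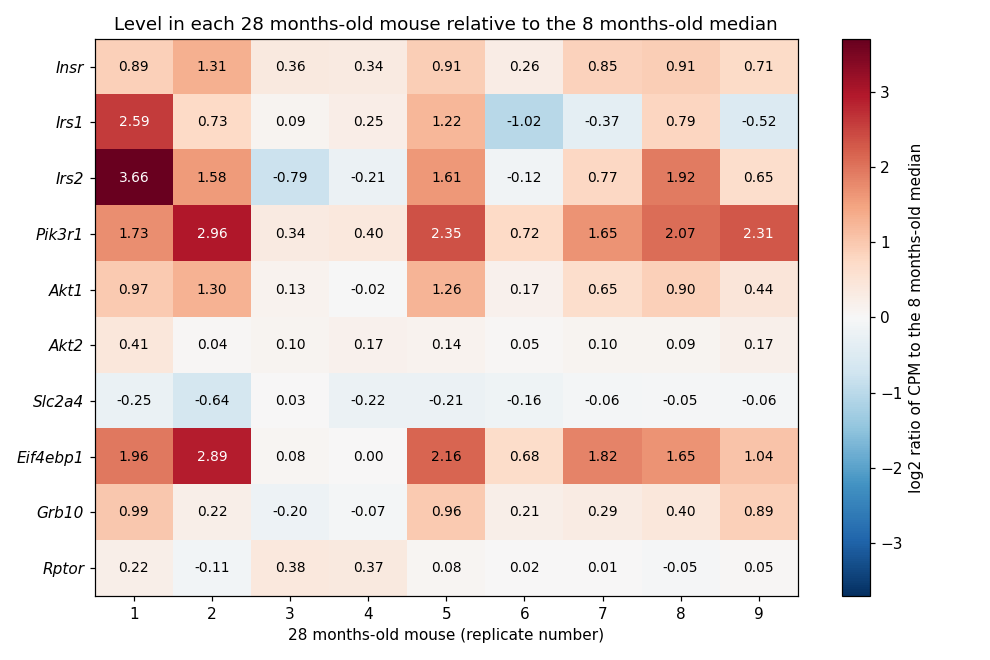
Log2 ratio of the CPM of each gene in each of the 9 mice of 28 months (columns, by replicate number) to the median of the 8 months-old mice, printed in each cell. Mouse 1 reaches 3.66 in Irs2 and 2.59 in Irs1, mouse 2 reaches 2.96 in Pik3r1, and mice 3 and 4 stay between -0.79 and 0.40 in all 10 genes.

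Markers of other cell types also moved with age. Of 8 macrophage markers, 5 were higher and 0 lower at 28 against 8 months, and their summed level went from 175 to 301 TPM (median 221) at 8 months to 271 to 751 TPM (median 384) at 28 months, with mouse 2 at 751 TPM. Of 6 adipocyte markers, 5 were lower (median 296 TPM at 8 months and 123 TPM at 28 months), and of 6 fibroblast markers 4 were lower (median 1021 and 732 TPM). None of the 6 endothelial and none of the 6 slow fibre markers was called. With age means removed, the macrophage sum had r = 0.39 (rho = 0.39) with Akt1, 0.36 (0.31) with Eif4ebp1, 0.21 (0.08) with Pik3r1, 0.21 (0.14) with Irs2 and 0.08 (-0.04) with Insr over 50 mice. The endothelial sum had r = 0.56 (rho = 0.50) with Insr, and larger values with 2 members that were not called, 0.64 (0.60) with Rptor and -0.61 (-0.60) with Akt2. The part of these cells in the results was not tested. In whole muscle, more cells of a type and more RNA per cell cannot be told apart.

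Over the 50 mice, with the mean of each age removed, the members varied together in part. Of the 45 pairs, 30 had a positive Pearson's r of log2 CPM, with a median of 0.27. The share of positive pairs over all genes was not computed, so this count cannot be read as particular to the members. On log2(TPM + 1) 39 pairs were positive and 11 had the other sign, among them Insr and Akt2 (from -0.25 to 0.37), Akt2 and Rptor (from -0.40 to 0.18) and Insr and Slc2a4 (from -0.37 to 0.16), so the sign of the weaker pairs depends on the unit. Slc2a4 had a negative r with 8 of the other 9 genes, and with 5 of them on log2(TPM + 1) or without 28 months-old mouse 2. The highest values were 0.80 (rho = 0.66) for Akt1 and Eif4ebp1, 0.75 (rho = 0.67) for Irs1 and Irs2, 0.73 (rho = 0.39) for Pik3r1 and Akt1 and 0.71 (rho = 0.71) for Insr and Pik3r1. Rptor went the other way from Eif4ebp1 (r = -0.58). Without the 28 months-old mice the first 4 values were 0.63, 0.62, 0.60 and 0.62. Of the other genes tested, 99.9% had a lower r with Akt1 than Eif4ebp1 had, and 99.97% a lower r with Irs1 than Irs2. For Pik3r1, 99.2% had a lower r than Akt1, and for Insr, 95.7% had a lower r than Pik3r1. With Eif4ebp1, 5.82% of genes had a lower r than Rptor. These are descriptions over mice that share the depth and length differences given above.

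**Figure D4:**
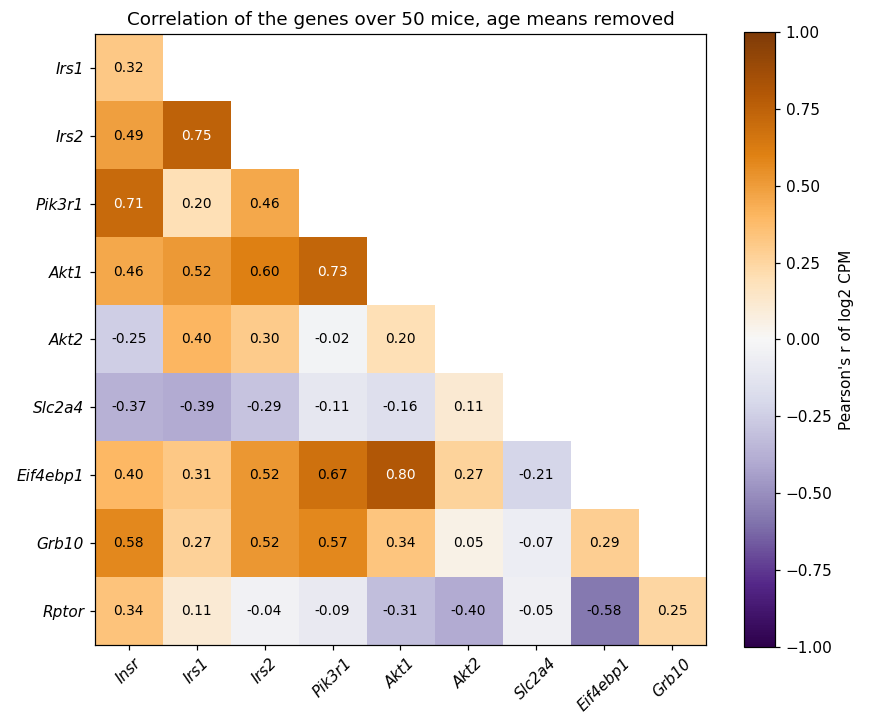
Pearson's r of log2 CPM between each pair of the 10 genes over 50 mice, after the mean of each age was removed, printed in each cell. Akt1 and Eif4ebp1 (0.80) and Irs1 and Irs2 (0.75) stand highest, and Slc2a4 has a negative value with 8 of the other 9 genes, which is 5 of 9 on log2(TPM + 1) or without 28 months-old mouse 2.

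The genes whose level followed each member most closely differed between members. Insr was closest to Tnks (r = 0.94), Arfgef2 (0.91) and Acacb (0.91), the last an enzyme that makes malonyl-CoA and so slows the burning of fatty acids. Irs2 was closest to Nfe2l2 (0.90), a regulator of the response to oxidative stress, Slc20a1 (0.89) and the kinase gene Sik1 (0.88). Irs1 was closest to Pim1 (0.81), Pde4b (0.79) and Bcl2l11 (0.76). Eif4ebp1 was closest to Map1lc3b (0.94), which encodes an LC3 protein of the autophagosome, to 2410006H16Rik (0.93) and to Psmd4 (0.93), a proteasome subunit. Pik3r1 was closest to Tfdp2 (0.86), Exosc10 (0.86) and Fzd4 (0.84), and Akt1 to Vegfd (0.87), Ctsl (0.85), a lysosomal protease, and Hgs (0.84). For Akt2 the nearest were Anapc5 (0.83), Cct7 (0.81) and Kars (0.77), for Slc2a4 they were Slc16a3 (0.73), a lactate transporter, Ecsit (0.70) and Fam98c (0.70), for Grb10 they were Vps13d (0.74), Rbm5 (0.74) and Fgfr1 (0.73), and for Rptor they were Akap6 (0.85), Ank2 (0.85) and Plec (0.84). Each r is over the same 50 mice with age means removed, and Spearman's rho of these 30 pairs lay between 0.55 and 0.93. On log2(TPM + 1), none of the genes named for Slc2a4 (0.48, 0.61 and 0.47) or Akt2 remained among the 3 nearest. Without the 28 months-old mice, none of those named for Slc2a4 or Grb10 did. All 3 of Eif4ebp1 remained in both cases, and the other members kept 1 or 2 of their 3 each time.

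The other genes of the pathway were taken from 8 lists with 154 genes, of which 144 could be tested. At 28 against 8 months 40 of them rose and 21 fell, that is 27.8% and 14.6%, beside 21.0% and 18.7% of all genes. Their median log2 fold change was 0.11 beside 0.01. The lists were chosen with earlier results of these data known, so these values are a description and not a test of the pathway. With only the mice of 8 and 28 months in the fit 39 list genes passed, and with the long-gene index 40. The shares of all genes called under these settings are not given here, so these counts do not set the lists apart from other genes. At 28 against 22 months 34 of the 144 rose and 20 fell, where 16.2% of all genes were higher and 11.5% lower. Mice of these ages started the diet at a like age but differ in the time spent on it. Of the 29 list genes named here, 26 passed there too in the same direction, and Socs3 (1.18, FDR = 0.0159), Grb2 (-0.19, FDR = 0.0139) and Eif4e (-0.10, FDR = 0.263) did not. The 29 were picked by their change at 28 against 8 months, and both comparisons share the 28 months-old mice. This overlap was therefore largely set by the choice and is no separate check.

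Among receptor adaptors and brakes, 5 of 15 genes rose and 4 fell. Cblb, a ubiquitin ligase that marks IRS1 for breakdown in unloaded muscle, rose from 23.7 ± 4.0 to 50.1 ± 29.6 CPM (log2 fold change 1.08, FDR = 5.73e-05), and Socs3, a feedback inhibitor of cytokine and insulin signals, rose from 4.44 ± 1.7 to 10.9 ± 14.8 CPM (1.32, FDR = 0.00576), with an SD above its mean at 28 months. Grb14, an inhibitor of the receptor and a relative of Grb10, fell from 24.3 ± 7.2 to 9.26 ± 5.7 CPM (-1.40, FDR = 4.33e-05), and Grb2 changed by -0.21 (FDR = 0.00663). Among PI3K subunits and lipid phosphatases, 7 of 19 rose and 2 fell. The phosphatase genes Inpp5d (0.80, FDR = 0.000187) and Inpp5k (0.71, FDR = 4.36e-08) rose, and Pik3cd (-0.64, FDR = 0.00127), a catalytic subunit of white blood cells, and Inppl1 (-0.48, FDR = 0.000958), which encodes the lipid phosphatase SHIP2, fell.

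Among genes of Akt activation and its substrates, 6 of 19 rose and 3 fell. Foxo1, a transcription factor kept out of the nucleus by Akt, rose from 45.6 ± 24.0 to 161 ± 94.6 CPM (1.82, FDR = 6.46e-05) and Foxo3 from 33.7 ± 5.6 to 86.1 ± 35.6 CPM (1.35, FDR = 7.04e-07). Mapkap1, a subunit of mTORC2, changed by -0.30 (FDR = 0.00107). Among genes of glucose uptake, 5 of 21 rose and 2 fell. Lnpep, the aminopeptidase that travels with GLUT4 in its vesicles, rose by 1.28 (FDR = 4.08e-06) and Slc2a1, the gene of the basal transporter GLUT1, by 0.46 (FDR = 0.00881), whereas the vesicle fusion genes Vamp3 (-0.35, FDR = 0.000213) and Stx4a (-0.27, FDR = 0.00359) fell.

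**Figure D5:**
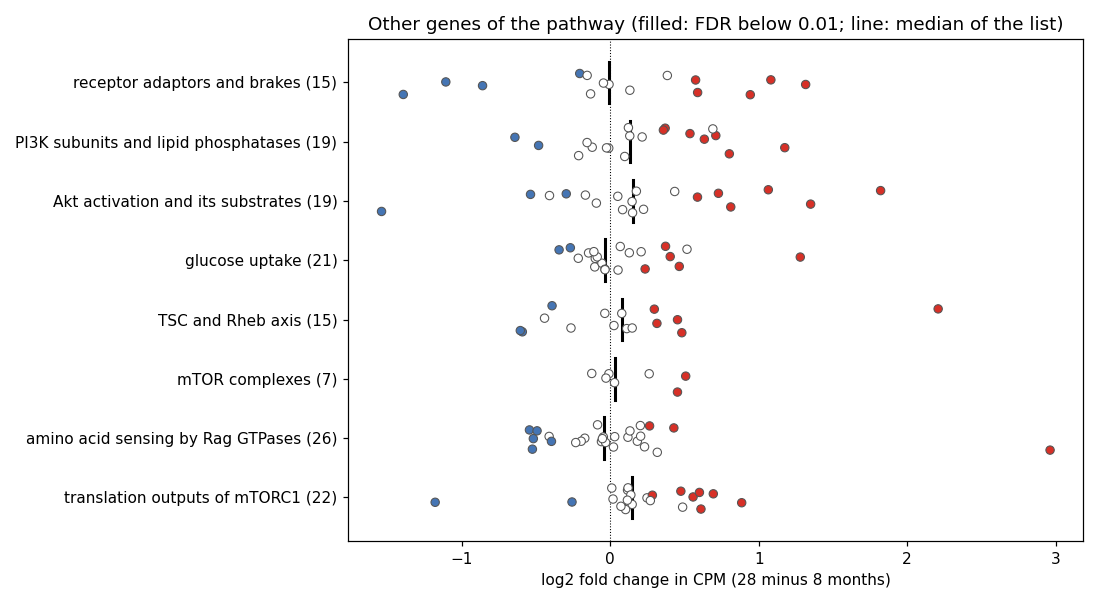
The log2 fold change in CPM at 28 against 8 months of each tested gene of the 8 lists (number of genes in brackets), filled in red or blue where the gene rose or fell at FDR below 0.01, with a line at the median of each list. Medians lie between -0.04 and 0.15, and Sesn1 (2.96) and Ddit4 (2.21) lie farthest to the right.

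On the mTORC1 side, the list of the TSC and Rheb axis, which includes restraints on the complex as well as its activator Rheb, held 5 of 15 genes that rose and 3 that fell. Ddit4, which encodes the mTORC1 inhibitor REDD1, went from 56.9 ± 43.4 to 264 ± 196 CPM (2.21, FDR = 0.000778) and Tsc1 rose by 0.48 (FDR = 4.5e-05), while Ddit4l (-0.61, FDR = 0.00441) and Tbc1d7 (-0.59, FDR = 6.61e-06), a subunit of the TSC complex, fell. Of 7 genes of the mTOR complexes, Deptor (0.51, FDR = 0.00159), an inhibitor of mTOR, and Mtor itself (0.45, FDR = 0.000791) rose and none fell. Among genes of amino acid sensing, 3 of 26 rose and 5 fell. Sesn1, a leucine sensor that FoxO factors and p53 induce, had the largest rise of the lists, from 24.6 ± 4.8 to 192 ± 161 CPM (2.96, FDR = 6.65e-07), Slc38a9, a lysosomal arginine sensor, rose by 0.43 (FDR = 0.000345), and Lamtor4 (-0.54, FDR = 6.5e-05) and Lamtor1 (-0.53, FDR = 4.84e-05), subunits of the lysosomal anchor of mTORC1, fell. Among the outputs on translation and lipid synthesis, 7 of 22 rose and 2 fell. Eif4g3 (0.89, FDR = 1.73e-06) and Eif4a1 (0.69, FDR = 1.73e-06), parts of the cap-binding complex, rose, and the partner of 4E-BP1, Eif4e (-0.26, FDR = 0.00212), and Srebf1 (-1.18, FDR = 6.03e-09), the regulator of lipid synthesis that insulin induces, fell.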

How the data were processed

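RNA of the gastrocnemius of 50 mice was sequenced as stranded mRNA libraries. According to the submitters' processing notes and the paper's methods, the authors trimmed reads with cutadapt 1.9.1 and assigned them with kallisto 0.43.1 to protein-coding transcripts of GRCm38, dividing reads that fit several transcripts. The counts per gene, as deposited, are whole numbers, and the TPM values, as deposited by the authors, are normalized to length and library size. Total counts per mouse were 13607229 to 21267375. Groups were taken from the sample titles.

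A gene entered the tests if 8 or more mice had 1 CPM or more. The counts of the 12586 genes left were fitted once over the 6 ages with the quasi-likelihood functions of edgeR 4.0.16 (R 4.3.3) after TMM scaling, and p-values were adjusted over these genes by Benjamini and Hochberg's method, with calls at FDR 0.01. Alternatives were other scaling factors, no filter, DESeq2 1.42.0, limma 3.58.1 on log2(TPM + 1) and log2(TPM + 0.1), a replicate block, FDR 0.05, only the compared ages, and each mouse left out. After seeing the data, 28 months-old mice 1 and 2 were left out together, and an index of long against short genes was used as a covariate. The index used the longest protein-coding transcript in GENCODE M21, known for 95.5% of genes. The tests were first tested on simulated data.

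The members and lists were chosen with earlier results of these data known. Named beside the 10 members were, per pathway list, up to 2 genes that rose and 2 that fell most (FDR below 0.01, mean level 5 CPM or more), and for each member the 3 genes of highest r. RefSeq promoter windows matched 7 of the 10 members by symbol. Gene positions came from GENCODE M21 on GRCm38. Libraries came from separate mice, so p-values measure the spread between animals. No pair of libraries of 1 age agreed within counting noise.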

Additional observations from a re-analysis of the deposited data

Results flagged for a closer look

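Among the 60 groups formed by 10 genes and 6 ages, 10 held a mouse that stood apart from the rest of its group by the gap to its neighbour relative to the range. The cut-off gives about 1 in 20 groups for normally distributed values. Levels in CPM need not be so distributed: Irs2 at 28 months had a mean of 135 CPM and a median of 73.6 CPM. The count of 10 can therefore not be set against this rate, and several of the 10 come from the same mouse. At 28 months, mouse 1 was the highest for Irs1 (383 CPM, next mouse 148 CPM), Irs2 (545 CPM, next 164 CPM) and Akt2 (500.4 CPM, next 426 CPM), and mouse 2 was the lowest for Slc2a4 (376 CPM, next 492 CPM). At 26 months, mouse 1 was the highest for Pik3r1 (370 CPM, next 112 CPM) and Akt1 (149 CPM, next 92.3 CPM). At 24 months, mouse 1 was the highest for Irs1 (107 CPM, next 59.3 CPM) and Irs2 (61.9 CPM, next 45.4 CPM), and mouse 3 the lowest for Grb10 (24.6 CPM, next 35.3 CPM). At 8 months, mouse 8 was the highest for Pik3r1 (59.4 CPM, next 43.4 CPM). The total counts of the 26 months-old mouse 1 and the 28 months-old mice 1 and 2 were 18945656, 16347762 and 17443783, within the range of the other libraries. The 28 months-old mouse 2 also had the lowest summed level of muscle fibre markers (114041 TPM) and the highest of macrophage markers (751 TPM).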

How the results depend on the processing

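The count of members called at 28 against 8 months was 5 and stayed between 4 and 6 under the alternatives other than FDR 0.05, which gave 8. That at 28 against 22 months was 5 to 7, and no member was called at 18, 22 or 24 against 8 months or in a single step under any of them. Of all 12586 genes, 4988 were called at 28 against 8 months in the main fit, 5181 with DESeq2 and 4560 with limma on log2(TPM + 1). The calls over all genes under the other alternatives, FDR 0.05 among them, are not given here. The counts of members therefore do not set them apart from other genes. At 26 against 8 months, 4 calls became 2 (Pik3r1 and Eif4ebp1) without the filter and with only these ages in the fit, and 2 to 5 with single mice left out. Limma on TPM at both pseudocounts and the index as a covariate gave 3 calls there, with Akt2 in place of Insr and Akt1. At 28 against 8 months the pathway lists gave 61 calls, 39 with only these ages in the fit and 40 with the long-gene index as a covariate. The calls over all genes under these settings are not given here. Small differences turned direction without a call: at 28 against 22 months Akt2 (-0.021 with upper-quartile factors), Rptor (-0.020 with these and -0.12 with the index) and Slc2a4 (0.022 with limma at both pseudocounts, 0.044 without mice 1 and 2 of 28 months, 0.054 with the index, -0.047 to 0.026 with single mice left out), and at 28 against 8 months Rptor (-0.048 with the index). Replicate numbers do not pair the mice: libraries of the same number and different age had a median r of 0.05. With a replicate block 5 members were called at 28 against 8 and against 22 months and 4 at 26 against 8 months, as without it, and 62 genes of the lists. The r of Akt1 and Eif4ebp1 was 0.75 on log2(TPM + 1) and 0.63 without the 28 months-old mice, and that of Eif4ebp1 and Rptor was -0.36 on log2(TPM + 1). Without the 28 months-old mice the r of Irs1 and Irs2 was 0.62, of Pik3r1 and Akt1 0.60 and of Insr and Pik3r1 0.62. Of the 30 nearest genes, 14 remained among the 3 nearest of their member on log2(TPM + 1) and 13 without the 28 months-old mice. The cause of these shifts was not tested.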

Other observations

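With age means removed, total counts per mouse had r = 0.45 with Akt2 and between -0.10 and 0.23 with the other 9 members over 50 mice.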
